A study of Mus musculus with 3 samples.

Results

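The genes of the proteasome were read in 3 RNA-seq libraries of sorted mouse cells: all rows whose symbol is Psm followed by a letter from a to g and a number, 49 of the 23234 genes listed. They comprise the subunits of the 20S core and of the 19S regulatory particle, activators, a regulator and assembly chaperones. Psmb8, Psmb9, Psmb10, Psme1 and Psme2 were taken as the immunoproteasome subgroup, and 41 genes as the constitutive group. The remaining 3 matched the pattern but stood outside both. They are Psma8, the testis form of an alpha ring subunit, Psmb11, the beta subunit of thymic cortical epithelium, and Psmc3ip, which encodes a recombination factor and not a proteasome subunit.

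The libraries came from wild-type C57BL/6J mice 6 to 15 weeks old that had received lipopolysaccharide (LPS), a bacterial cell wall component, into both nostrils (10 µg in 10 µL of PBS). Nasal double-positive cells (DP) carried the gate CD45+Ly6G+SiglecF+, and their library was made from noses 2 days after treatment. Nasal neutrophils, gated as CD45+Ly6G+SiglecF-, came from the nose at 1 day, and blood neutrophils, with the same gate, came from peripheral blood at 1 day. All 3 groups were exposed to LPS, and no untreated library was analysed here. Each group was 1 library, and how many mice gave the cells is not given in the sources used here, so no value below has a replicate error and no difference was tested. DP cells differ from nasal neutrophils in both gate and day, and from blood neutrophils in gate, day and tissue, so the contributions of these cannot be told apart.

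The proteasome is the barrel-shaped protease that degrades ubiquitin-tagged proteins in the cytosol and nucleus. Its 20S core is a stack of alpha rings, which gate the entrance, and beta rings, in which Psmb5, Psmb6 and Psmb7 carry the active sites. The 19S particle binds, unfolds and feeds in the substrate. Interferon-gamma and other inflammatory signals induce Psmb8, Psmb9 and Psmb10, which take the places of Psmb5, Psmb6 and Psmb7 in newly built cores, and Psme1 and Psme2, which form the PA28 cap. The resulting immunoproteasome is known for cutting peptides that fit MHC class I molecules, and it is abundant in leukocytes.

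Levels are FPKM, fragments per kilobase of transcript per 1000000 mapped fragments, which can be set side by side between genes. Ratios were taken after adding 1 FPKM and are given as log2, so changes of low genes come out too small. A gene was described as higher or lower from 2-fold, a log2 ratio of 1. Of the 49 genes, 48 had a mean of 1 FPKM or more over the libraries, the limit for the 10719 genes compared; Psma8 did not. The spacing of low values gave an estimate of depth, roughly 55100000 fragments in the DP library, with 12900000 in the nasal neutrophil library and 54900000 in the blood neutrophil library. Low values of nasal neutrophils thus rest on the fewest fragments. The median log2 ratio of all 10719 genes was 0.57 for DP over nasal neutrophils, 0.41 for nasal over blood neutrophils and 0.95 for DP over blood neutrophils, and values of the members are best read against these shifts. Transcripts of other cells differed between the libraries. The 20 nasal epithelial and olfactory marker genes summed to 3395 FPKM in DP cells, 2365 FPKM in nasal neutrophils and 7.06 FPKM in blood neutrophils. In blood, 11 of them were at 0. Of the 17 compared, 8 were 2-fold higher and 3 lower in DP than in nasal neutrophils, against 33.6% and 11.3% of all genes. The median log2 ratio of the 17 was 0.48, against 0.57 over all genes. The 9 macrophage marker genes with a row summed to 460.6, 549.9 and 400.4 FPKM in the same order, with the complement genes C1qa, C1qb and C1qc at 0 in blood, and 12 neutrophil marker genes summed to 12924, 58918 and 79782 FPKM, with S100a8 listed at 0 in blood. Siglec5, the symbol under which the gene of the sorted marker SiglecF is listed, was at 167.8 FPKM in DP cells, 9.92 FPKM in nasal neutrophils and 18.72 FPKM in blood neutrophils, and the eosinophil peroxidase gene Epx was at 0 in all 3. In bulk RNA, fewer cells of a type and less RNA per cell cannot be told apart, and the part of other cells' RNA in the values below was not tested.

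Proteasome transcripts took a larger share of the DP library than of either neutrophil library. Summed over the 49 genes, the level was 6014 FPKM in DP cells, 2509 FPKM in nasal neutrophils and 2579 FPKM in blood neutrophils. As a share of the summed FPKM of the library this was 0.943% in DP cells, 0.404% in nasal and 0.389% in blood neutrophils, so that DP stood 2.33-fold above nasal and 2.43-fold above blood neutrophils in share, while the neutrophil libraries were within 1.04-fold of each other. The 41 constitutive genes summed to 4786 FPKM in DP cells, 1762 FPKM in nasal neutrophils and 2026 FPKM in blood neutrophils. The 5 genes of the immunoproteasome subgroup summed to 1221, 743.8 and 548.6 FPKM. In DP over nasal neutrophils the constitutive sum was 2.72-fold higher and the immunoproteasome sum 1.64-fold. In DP over blood neutrophils these folds were close, at 2.36 and 2.23. DP held the highest level for 41 of the 48 genes, or 85.4%, where it did so for 58.7% of all compared genes. The exceptions were Psmb5, Psmd3 and Psme1, highest in nasal neutrophils, and Psmb9, Psmd13, Psmg3 and Psmb11, highest in blood neutrophils.

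The catalytic subunits of the beta ring did not move as a block. Psmb8, the chymotrypsin-like subunit of the immunoproteasome, stood at 433.1 FPKM in DP cells, 190.9 FPKM in nasal neutrophils and 163.7 FPKM in blood neutrophils. Psmb5, whose place it takes, was near level, at 68.81, 75.89 and 66.82 FPKM. Psmb8 was thus the higher of this pair in all 3 libraries, by 6.29-fold in DP cells, 2.52-fold in nasal and 2.45-fold in blood neutrophils.

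Psmb9 went the other way. It stood at 64.71 FPKM in DP cells, 76.3 FPKM in nasal neutrophils and 121.1 FPKM in blood neutrophils. Its constitutive counterpart Psmb6, the caspase-like subunit, stood at 308.9 FPKM in DP cells, 59.69 FPKM in nasal neutrophils and 45.87 FPKM in blood neutrophils, the largest log2 ratio of any core subunit for DP over nasal neutrophils (2.35). In DP, therefore, Psmb6 exceeded Psmb9 4.77-fold, whereas Psmb9 exceeded Psmb6 1.28-fold in nasal neutrophils and 2.64-fold in blood neutrophils.

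Psmb10, the trypsin-like subunit of the immunoproteasome, had the widest range of the catalytic genes. It stood at 140.1 FPKM in DP cells, 35.62 FPKM in nasal neutrophils and 8.89 FPKM in blood neutrophils, while Psmb7, whose place it takes, stood at 64.61, 61.84 and 52.69 FPKM. Psmb10 was 15.8-fold higher in DP than in blood neutrophils, and it exceeded its counterpart in DP but not in the neutrophil libraries.

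**Figure D1:**
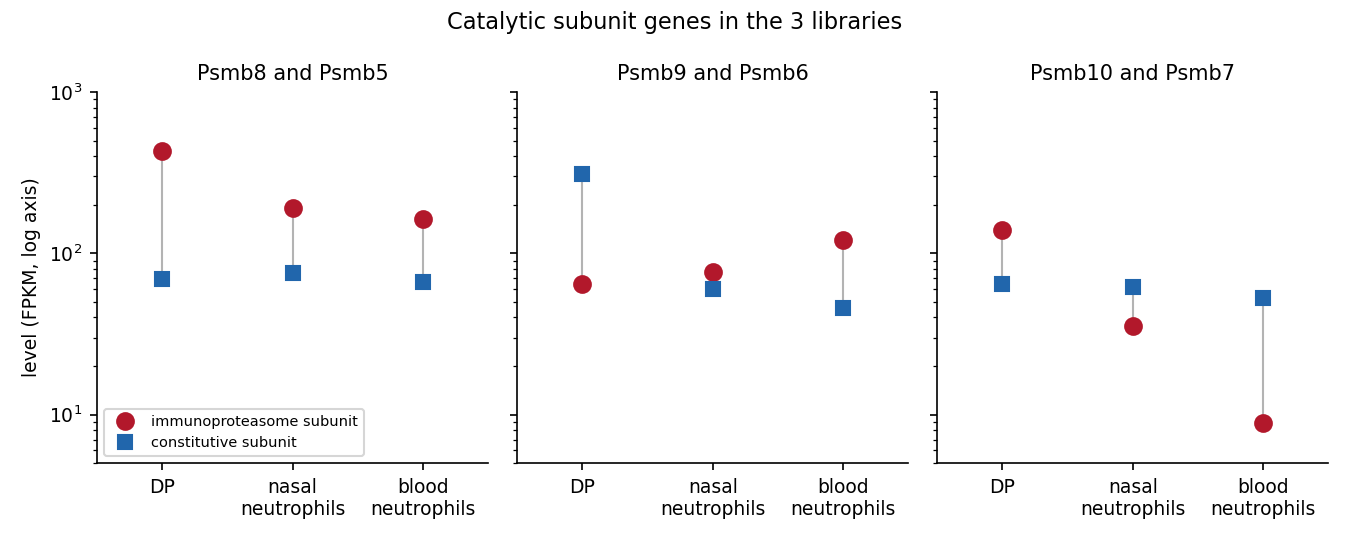
Levels in FPKM, on a log axis, of the 3 immunoproteasome catalytic subunit genes (red circles) and of the constitutive gene each replaces (blue squares), in 1 library each of DP, nasal neutrophils and blood neutrophils. Psmb8 lies above Psmb5 throughout, Psmb9 lies below Psmb6 in DP and above it in both neutrophil libraries, and Psmb10 lies above Psmb7 in DP at 140.1 against 64.61 FPKM.

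A share within a pair does not depend on how libraries are scaled to each other. It can depend on shifts that vary with transcript length, described below. Lengths were 1628 nt for Psmb8 and 899 nt for Psmb5, 1352 nt for Psmb9 and 798 nt for Psmb6, and 1311 nt for Psmb10 and 1160 nt for Psmb7. The effect of length on the shares was not tested. Psmb8 made up 86.3% of the Psmb8 and Psmb5 total in DP cells, 71.6% in nasal and 71% in blood neutrophils. Psmb9 made up 17.3% of the Psmb9 and Psmb6 total in DP cells, 56.1% in nasal and 72.5% in blood neutrophils. Psmb10 made up 68.4% of the Psmb10 and Psmb7 total in DP cells, 36.5% in nasal and 14.4% in blood neutrophils. The pairs with Psmb9 and Psmb10 were ordered in opposite ways, and over the summed 3 pairs the immunoproteasome share lay close together, at 59.1% in DP cells, 60.5% in nasal and 64% in blood neutrophils. This held for the sum alone: the median of the 3 pair shares was 68.4% in DP cells, 56.1% in nasal and 71% in blood neutrophils. These are shares of transcripts, and protein was not measured here.

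**Figure D2:**
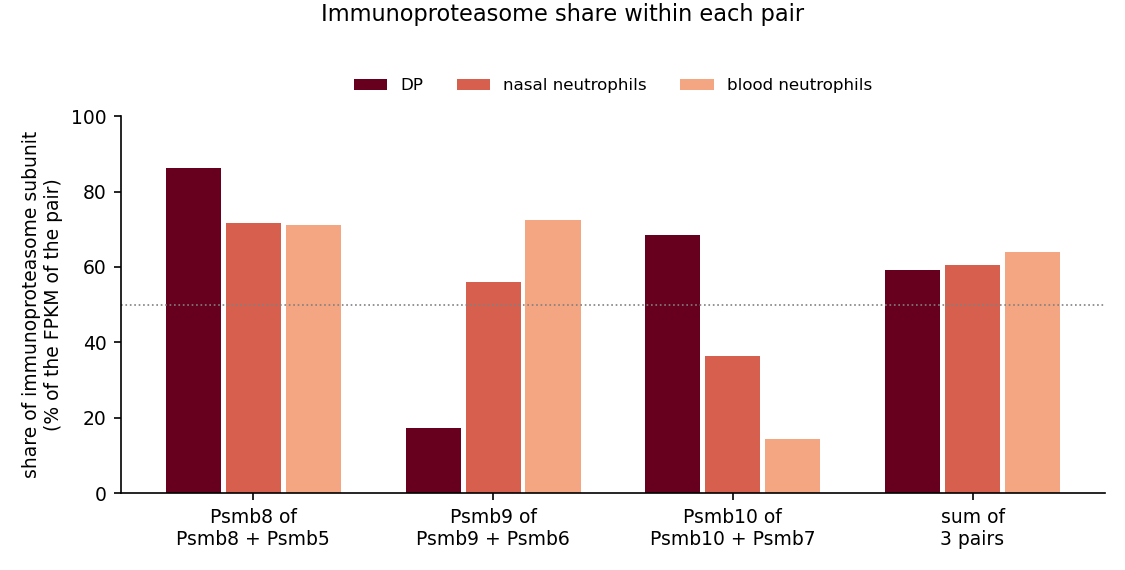
Share of the immunoproteasome gene in the summed FPKM of each catalytic pair, in percent, with bars for DP, nasal neutrophils and blood neutrophils, 1 library each and no error; the dotted line marks equal levels. The Psmb9 share is lowest in DP at 17.3% and the Psmb10 share highest there at 68.4%, and the sums of 3 pairs lie between 59.1% and 64%.

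Psmb8 and Psmb9 lie in the MHC class II region beside the peptide transporter genes, in the order Psmb9, Tap1, Psmb8 and Tap2 on chromosome 17. The promoter windows of both, and of constitutive Psmb5 and Psmb6, are printed to show a pair with a shared order in all libraries (Psmb8 and Psmb5) beside one whose order differed (Psmb9 and Psmb6). Each runs from 250 bases before the annotated start to 50 bases after it, 5′ to 3′ on the strand of the gene, from RefSeq on GRCm38.p6, a later build than the mm9 of the deposited values. Capitals mark matches to 3 motifs, each searched on both strands: TGACNNNGC for the antioxidant response element, through which NFE2L1 and NFE2L2 act, GAAA, any 2 bases and GAAA for the interferon-stimulated response element, and TTCNNNGAA for the gamma-activated site.
Psmb8, chr17:34197945-34198244, plus strand: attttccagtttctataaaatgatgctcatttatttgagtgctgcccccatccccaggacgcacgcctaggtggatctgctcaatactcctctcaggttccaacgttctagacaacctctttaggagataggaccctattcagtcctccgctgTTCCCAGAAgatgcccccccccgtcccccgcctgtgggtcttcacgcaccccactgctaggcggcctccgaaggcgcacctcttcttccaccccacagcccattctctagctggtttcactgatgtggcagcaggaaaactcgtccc
Psmb9, chr17:34187281-34187580, minus strand: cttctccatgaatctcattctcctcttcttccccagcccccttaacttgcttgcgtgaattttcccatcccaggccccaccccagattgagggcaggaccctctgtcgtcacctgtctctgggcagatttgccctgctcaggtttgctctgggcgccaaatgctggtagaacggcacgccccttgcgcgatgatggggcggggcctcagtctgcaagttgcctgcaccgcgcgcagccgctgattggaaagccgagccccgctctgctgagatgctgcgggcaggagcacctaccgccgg
Psmb5, chr14:54617946-54618245, minus strand: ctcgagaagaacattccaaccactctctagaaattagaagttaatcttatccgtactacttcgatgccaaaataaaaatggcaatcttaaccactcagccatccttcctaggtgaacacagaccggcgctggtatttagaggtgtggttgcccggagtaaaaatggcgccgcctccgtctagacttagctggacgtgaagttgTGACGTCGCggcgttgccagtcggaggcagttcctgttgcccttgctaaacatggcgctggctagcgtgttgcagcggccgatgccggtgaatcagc
Psmb6, chr11:70525107-70525406, plus strand: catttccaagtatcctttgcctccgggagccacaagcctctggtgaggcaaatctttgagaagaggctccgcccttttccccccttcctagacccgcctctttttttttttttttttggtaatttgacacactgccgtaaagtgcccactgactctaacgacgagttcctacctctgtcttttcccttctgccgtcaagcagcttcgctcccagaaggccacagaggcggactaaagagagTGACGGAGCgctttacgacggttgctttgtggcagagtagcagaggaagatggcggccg

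The Psmb8 window holds a gamma-activated site match whose first base lies at -97 from the start. The Psmb9 window holds none of the 3 motifs, which says only that these letters are not in it. Psmb5 and Psmb6 each hold an antioxidant response element match, at -47 and -9. Psmb5 was near level over the libraries and Psmb6 was 5.18-fold higher in DP than in nasal neutrophils. Whether the motif bears on these levels was not tested. Of the 49 genes, 41 had a promoter in the RefSeq table. The antioxidant response element was present in 6 of these 41 (14.6%), against 14% of all 27025 genes with a promoter, the gamma-activated site in 3 (7.32%) against 9.55%, and the interferon-stimulated response element in 5 (12.2%) against 3.99%. Those 5 were Psmb3, Psmd4, Psmd9, Psme1 and Psmg4, of which Psme1 alone belongs to the immunoproteasome subgroup.

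The Psmb9 window overlaps that of Tap1, which is read in the opposite direction, by 275 bases, and their annotated starts are 226 bases apart. The genes differed in pattern. Tap1 stood at 39.31 FPKM in DP cells, 82.38 FPKM in nasal neutrophils and 29.24 FPKM in blood neutrophils, highest in nasal neutrophils, whereas Psmb9 was highest in blood. The log2 ratio of nasal over blood neutrophils was 1.46 for Tap1 and -0.66 for Psmb9. Tap2, beside Psmb8, stood at 69.36, 77.59 and 48.31 FPKM in these libraries, in that order.

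The PA28 cap genes also parted. Psme2 stood at 490.7 FPKM in DP cells, 325.4 FPKM in nasal neutrophils and 154.7 FPKM in blood neutrophils, and Psme1, which lies close to it on chromosome 14 with Emc9 between them, at 92.04, 115.6 and 100.2 FPKM. Psme2 therefore exceeded Psme1, its partner in the cap, 5.33-fold in DP cells, 2.81-fold in nasal and 1.54-fold in blood neutrophils. Reads of Psme2 may be shared with its copy Psme2b, which has no row here, and the effect of this was not tested.

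As a subgroup, 2 of the 5 immunoproteasome genes, Psmb8 and Psmb10, were at least 2-fold higher in DP than in nasal neutrophils and none was 2-fold lower, where 33.6% of all compared genes were 2-fold higher and 11.3% 2-fold lower. The median log2 ratio of the 5 was 0.59, close to the 0.57 of all genes, and it was -0.07 after upper-quartile scaling. For nasal over blood neutrophils, Psmb10 and Psme2 were 2-fold higher and none 2-fold lower, where 33.5% and 12.8% of all genes were. The median was 0.22, against 0.41 over all genes. For DP over blood neutrophils, Psmb8, Psmb10 and Psme2 were 2-fold higher and none 2-fold lower, where 48.6% and 9.49% of all genes were. The median was 1.4, against 0.95 over all genes. In all 3 comparisons the subgroup divided, with Psmb10 at one end and Psmb9 or Psme1 at the other.

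The other activators and the regulator differed in pattern. Psme3, which forms the nuclear PA28-gamma cap, stood at 37.18 FPKM in DP cells, 15.62 FPKM in nasal neutrophils and 1.85 FPKM in blood neutrophils. This made it 20.1-fold higher in DP and 8.43-fold higher in nasal neutrophils than in blood neutrophils. Psme4, which encodes the large activator PA200, was low throughout, at 2.21, 0.889 and 1.89 FPKM. Psmf1, whose product PI31 binds the core and inhibits it in the test tube, stood at 17.61 FPKM in DP cells, 3.64 FPKM in nasal neutrophils and 5.78 FPKM in blood neutrophils.

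In the constitutive group as a whole, DP exceeded nasal neutrophils by at least 2-fold for 29 of 41 genes and 0 were 2-fold lower, against 33.6% and 11.3% of all genes. The median log2 ratio of 1.28 was 0.71 above that of all genes. With ratios centred on the median of all genes, 14 of 41 were 2-fold higher and 0 lower, against 16.6% and 20.2% of all genes. At 4-fold, 6 were higher: Psmb6, Psmc4, Psmd4, Psmd5, Psmg1 and Psmf1, where 8.42% of all genes were and 3.62% were 4-fold lower. Psmf1 lay at that limit, with a log2 ratio of 2. For DP over blood neutrophils, 30 of 41 were 2-fold higher and 0 lower, against 48.6% and 9.49% of all genes, with a median of 1.32, which is 0.37 above that of all genes. With centred ratios 11 of 41 were 2-fold higher, near the 25.2% of all genes, and 2 were lower, against 24.3%. At 4-fold 10 of 41 were higher and 0 lower, a share of higher genes near the 24.0% of all genes, of which 3.57% were lower. For nasal over blood neutrophils, 5 were 2-fold higher and 4 lower, a smaller share of higher genes than the 33.5% of all genes, and the median of 0.1 lay 0.31 below that of all genes. At 4-fold Psmd3, Psmg2 and Psme3 were higher and 0 were lower, where 13.1% of all genes were higher and 3.23% lower. The comparisons share libraries and are not separate results.

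**Figure D3:**
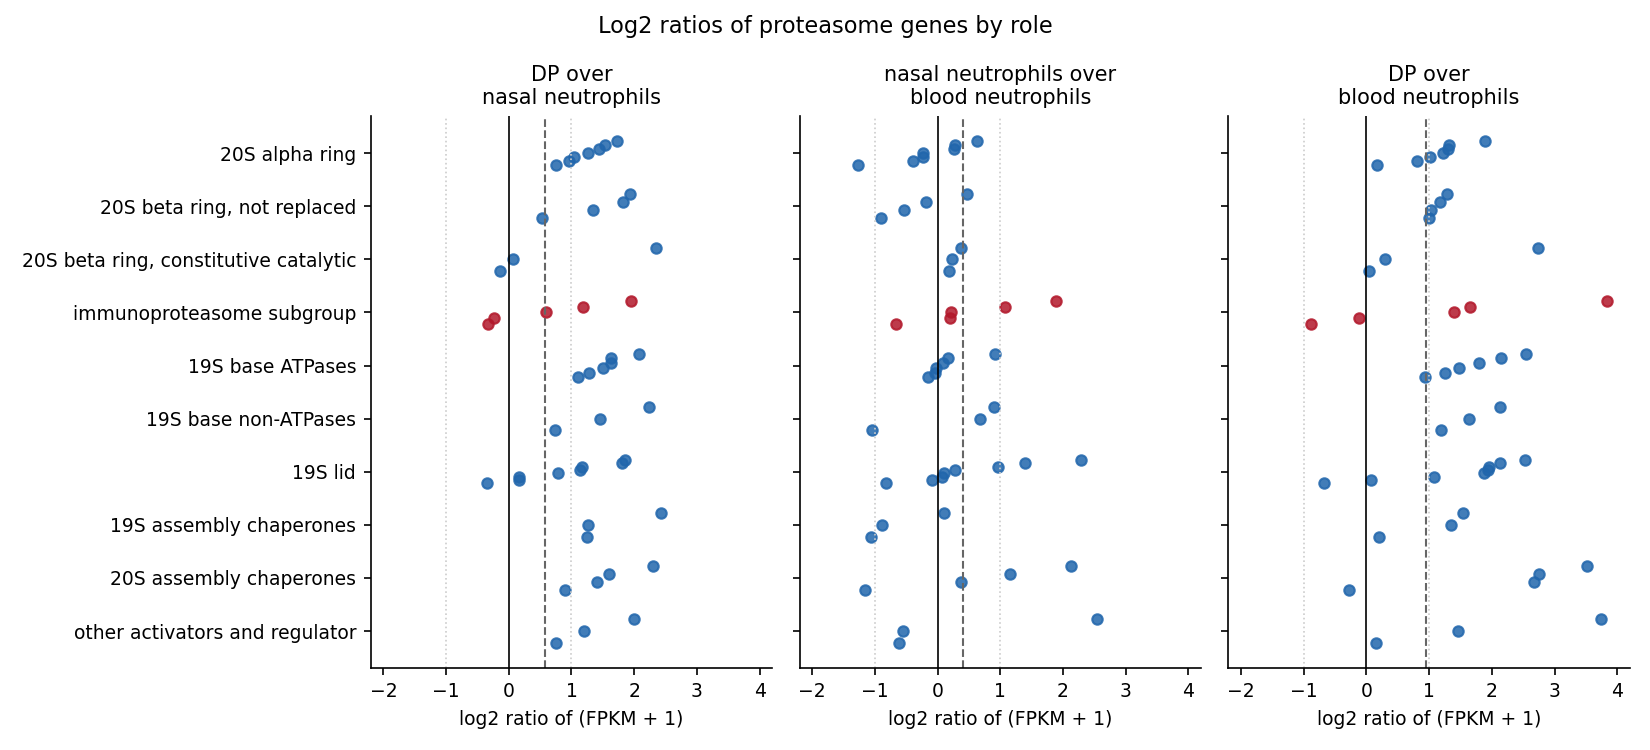
Log2 ratios of (FPKM + 1) of the proteasome genes by role, 1 point per gene, for DP over nasal neutrophils, nasal over blood neutrophils and DP over blood neutrophils; red points are the immunoproteasome subgroup, the dashed line is the median of all 10719 compared genes and dotted lines mark 2-fold. Most points lie right of the dashed line for DP over nasal neutrophils, and the points of the nasal over blood comparison scatter around 0.

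Before correction for length, all 7 general alpha ring genes had ratios of DP over nasal neutrophils above the 0.57 median of all genes. Their log2 ratios lay between 0.75 and 1.72. Of the 7, 5 were 2-fold higher and 0 lower, against 33.6% and 11.3% of all genes. Psma7 was the most abundant and had the largest ratio, at 407.9 FPKM in DP cells, 123.4 FPKM in nasal neutrophils and 162.5 FPKM in blood neutrophils. Psma6 had the smallest, at 140.3, 83.1 and 68.92 FPKM. Psma1 was the 1 alpha gene at least 2-fold lower in nasal than in blood neutrophils, where 12.8% of all genes were. It stood at 171.5 FPKM in DP cells, 62.53 FPKM in nasal neutrophils and 152.4 FPKM in blood neutrophils. Its log2 ratio of DP over blood neutrophils was 0.17. Psma5 was ordered DP, nasal and blood neutrophils, at 114.8, 47.5 and 30.34 FPKM, and had the largest alpha ring ratio for DP over blood neutrophils (1.89). Psma2, Psma3 and Psma4 lay between these, with levels of 218.4, 187.0 and 87.9 FPKM in DP, 105.8, 63.46 and 44.78 FPKM in nasal neutrophils, and 125.0, 75.1 and 37.21 FPKM in blood neutrophils. With ratios of DP over nasal neutrophils corrected for length, as described below, Psma4 and Psma6 were at 0.48 and 0.27. Both lay below the 0.57 of all genes. Psma1 and Psma5 were then at 0.96 and 0.78, and Psma2, Psma3 and Psma7 at 1.08, 1.59 and 1.24. Psma8, the testis form, was at 0.0903 FPKM in DP and listed at 0 in both neutrophil libraries.

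Of the beta subunits that have no inducible counterpart, Psmb3 had the highest level of any core gene in each library outside the immunoproteasome subgroup, at 526.9 FPKM in DP cells, 137 FPKM in nasal neutrophils and 256.7 FPKM in blood neutrophils. Psmb1 stood at 252.5, 70.94 and 102.8 FPKM and Psmb2 at 216.9, 84.35 and 95.56 FPKM in the same order. These 3 were 2-fold higher in DP than in nasal neutrophils, where 33.6% of all genes were. Psmb4 was not, at 80.95 FPKM in DP cells, 55.88 FPKM in nasal neutrophils and 40.05 FPKM in blood neutrophils. Corrected for length, Psmb2 and Psmb4 were at 0.77 and 0.05 for DP over nasal neutrophils, with Psmb1 and Psmb3 at 1.75 and 1.35. Psmb11, the thymic subunit, was at 1.97, 1.5 and 3.18 FPKM.

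In the 19S base, all 6 ATPase genes, whose products form the ring that unfolds the substrate, were 2-fold higher in DP than in nasal neutrophils. Of all genes, 33.6% were 2-fold higher there. The log2 ratios of the 6 were 1.11 to 2.08. Psmc4 had the largest, at 170.3 FPKM in DP cells, 39.64 FPKM in nasal neutrophils and 37.54 FPKM in blood neutrophils, and Psmc6 the smallest, at 58.85, 26.78 and 30.12 FPKM. Between nasal and blood neutrophils none of the 6 differed 2-fold, where 33.5% of all genes were higher and 12.8% lower in nasal neutrophils. Psmc5 came nearest, at 135.9 FPKM in DP cells, 43.19 FPKM in nasal neutrophils and 22.52 FPKM in blood neutrophils. Psmc1 had nearly the same level in nasal (45.14 FPKM) and blood neutrophils (46.16 FPKM), against 111.2 FPKM in DP. Psmc2 and Psmc3 resembled it, at 100.3 and 129.7 FPKM in DP, 34.52 and 41.23 FPKM in nasal neutrophils, and 35.62 and 36.85 FPKM in blood neutrophils. Corrected for length, the log2 ratios of the 6 for DP over nasal neutrophils were 1.1 to 1.72.

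The other base genes differed in which library was lowest. Psmd4, the ubiquitin receptor, stood at 300.5 FPKM in DP cells, 63.05 FPKM in nasal neutrophils and 131.1 FPKM in blood neutrophils, lowest in nasal neutrophils. The scaffold genes Psmd1 and Psmd2 were lowest in blood instead: Psmd1 stood at 23.65, 13.85 and 6.95 FPKM and Psmd2 at 107.8, 38.61 and 23.83 FPKM in these libraries, in that order.

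The lid genes, whose products hold and deubiquitinate the substrate, differed widely among themselves. Psmd11 and Psmd12 were more than 3-fold higher in DP than in both others, with Psmd11 at 152.9 FPKM in DP cells, 41.53 FPKM in nasal neutrophils and 38.75 FPKM in blood neutrophils, and Psmd12 at 96.41, 26.79 and 25.53 FPKM. Psmd14, the deubiquitinase of the lid, was ordered DP, nasal and blood, at 68.78, 30.22 and 14.97 FPKM, as was Psmd7, its partner, at 57.27, 25.48 and 9.1 FPKM. Psmd3 was an exception: it stood at 12.68 FPKM in DP cells, 16.38 FPKM in nasal neutrophils and 2.58 FPKM in blood neutrophils, the highest nasal over blood ratio among the 19S genes (2.28). Psmd13 was another, at 41.19, 36.83 and 65.92 FPKM, highest in blood neutrophils. Psmd8 was near level, at 69.93, 62.05 and 65.91 FPKM, and Psmd6 stood at 41.35, 23.46 and 19.2 FPKM. In all, 4 of 8 lid genes were 2-fold higher in DP than in nasal neutrophils and 6 of 8 higher than in blood neutrophils, against 33.6% and 48.6% of all genes. Corrected for length, Psmd7 and Psmd14 were at 0.95 and 0.97 for DP over nasal neutrophils, with Psmd11 and Psmd12 at 1.9 and 1.74.

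The 20S assembly chaperones Psmg1 to Psmg4 were below the alpha ring genes in each library, Psma8 aside. Psmg1 and Psmg2, which act as a pair on the alpha ring, stood at 24.95 and 14.4 FPKM in DP, at 4.27 and 4.81 FPKM in nasal neutrophils, and at 3.05 and 0.338 FPKM in blood neutrophils. Psmg2 rests on about 24 fragments in blood, so its 42.6-fold higher level in DP is imprecise. Psmg3 and Psmg4, the second pair, parted: Psmg4 stood at 19.5 FPKM in DP cells, 5.77 FPKM in nasal neutrophils and 2.04 FPKM in blood neutrophils, and Psmg3 at 8.7, 4.24 and 10.69 FPKM. In nasal neutrophils these 4 genes rest on about 41 to 81 fragments each.

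The chaperones of the 19S base were all 2-fold higher in DP than in nasal neutrophils, where 33.6% of all genes were. Psmd5 had the largest log2 ratio of the 49 genes in that comparison (2.42), at 69.51 FPKM in DP cells, 12.17 FPKM in nasal neutrophils and 23.27 FPKM in blood neutrophils. Psmd10, which encodes gankyrin, stood at 57.68, 23.4 and 49.95 FPKM, near level between DP and blood. Psmd9 was low, at 7.72, 2.68 and 2.42 FPKM. Corrected for length, Psmd10 was at 0.91 for DP over nasal neutrophils, with Psmd5 at 2.69 and Psmd9 at 1.23.

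**Figure D4:**
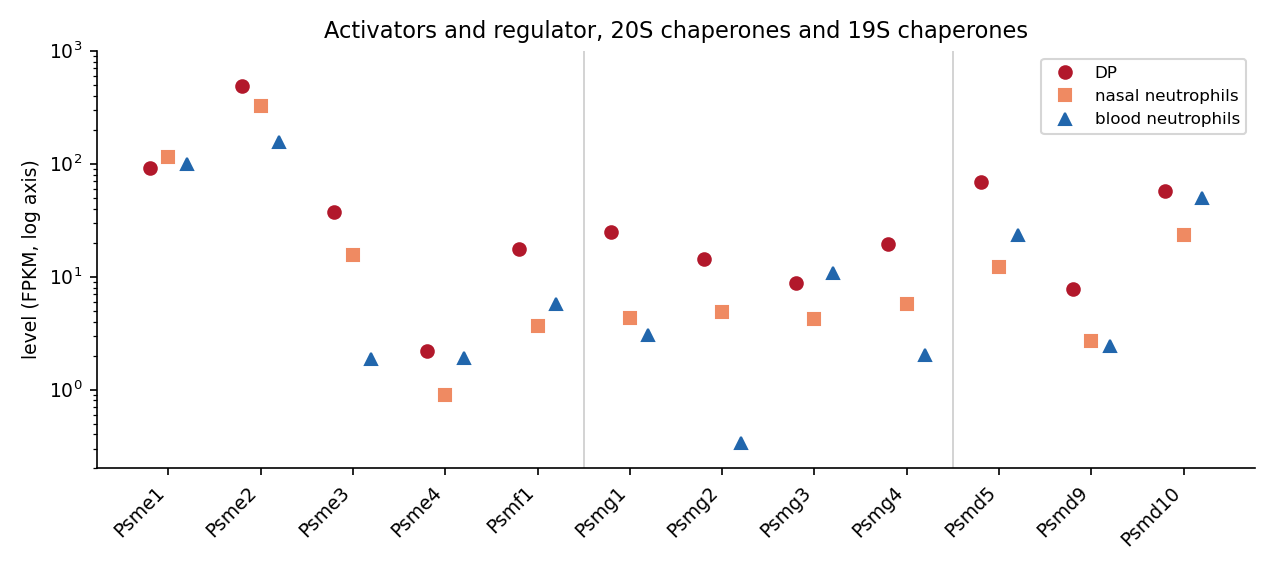
Levels in FPKM, on a log axis, of the activator and regulator genes (left), the 20S assembly chaperones (middle) and the 19S assembly chaperones (right) in DP, nasal neutrophils and blood neutrophils, 1 library each. Psme3 and Psmg2 have the widest gaps between DP and blood, at 37.18 against 1.85 and 14.4 against 0.338 FPKM, while Psmg3 is highest in blood.

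Psmc3ip, which matched the naming pattern and is no proteasome gene, stood at 5.95 FPKM in DP cells, 1.02 FPKM in nasal neutrophils and 0.909 FPKM in blood neutrophils, and its log2 ratio of 1.79 for DP over nasal neutrophils is among those counted for the 48. Counted so, 32 of 48 (66.7%) were 2-fold higher and 0 lower in DP than in nasal neutrophils, against 33.6% and 11.3% of all genes. In nasal over blood neutrophils 7 were higher and 4 lower, against 33.5% and 12.8% of all genes. In DP over blood neutrophils 34 were higher and 0 lower, against 48.6% and 9.49% of all genes.

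Proteasome partners with other names followed the same course only in part. Of 9 with a row, 5 were 2-fold higher in DP than in nasal neutrophils and 0 lower, against 33.6% and 11.3% of all genes. Pomp, the maturation chaperone of the core, stood at 325.4 FPKM in DP cells, 113.4 FPKM in nasal neutrophils and 100.9 FPKM in blood neutrophils. Adrm1, a ubiquitin receptor of the 19S base, stood at 144.6, 34.13 and 35.44 FPKM, much like the ATPase genes. Uchl5, the deubiquitinase bound to Adrm1, was lowest in nasal neutrophils, at 66.93, 9.85 and 36.04 FPKM. So was Shfm1, the smallest lid subunit, which was highest in blood, at 564.8 FPKM in DP cells, 262 FPKM in nasal neutrophils and 869.7 FPKM in blood neutrophils. Usp14, a further deubiquitinase, stood at 7.4, 3.36 and 0.453 FPKM.

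Among proteasome gene regulators, several were highest in nasal neutrophils. Nfe2l1, which encodes the factor that raises proteasome genes when the protease is overtaxed, stood at 3.29 FPKM in DP cells, 12.05 FPKM in nasal neutrophils and 2.3 FPKM in blood neutrophils. Nfe2l2 stood at 130.6, 180.4 and 144.3 FPKM. Of the 8 genes of this list, 0 were 2-fold higher and 4 lower in DP than in nasal neutrophils, against 33.6% and 11.3% of all genes, the lower ones being Nfe2l1 and the small Maf partners Maff, Mafg and Mafk. Mafg stood at 4.16 FPKM in DP cells, 36.59 FPKM in nasal neutrophils and 16.35 FPKM in blood neutrophils, and Maff at 31.34, 165.2 and 0.384 FPKM. Ddi2, the protease that activates NFE2L1, was ordered otherwise, at 6.3, 6.03 and 1.24 FPKM, and Ngly1, which deglycosylates NFE2L1, stood at 25, 16.1 and 63.51 FPKM. NFE2L1 and NFE2L2 are known to be regulated through the stability of the protein, which transcript levels do not show.

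Genes of MHC class I peptide loading, which use the peptides that the immunoproteasome makes, were lower in DP than in nasal neutrophils for 7 of 14, and higher for 2, against 11.3% and 33.6% of all genes. The median log2 ratio was -0.75, against 0.57 over all genes. B2m, the light chain, stood at 1499 FPKM in DP cells, 3846 FPKM in nasal neutrophils and 4608 FPKM in blood neutrophils, and the heavy chain gene H2-D1 at 982.3, 2571 and 3121 FPKM, although reads of H2 genes may be divided among close copies. Nlrc5, the transactivator of this pathway, stood at 0.945, 6.14 and 0.538 FPKM. Erap1, which trims peptides in the endoplasmic reticulum, was higher in DP, at 19.32, 5.24 and 4.5 FPKM. Canx, a chaperone of the heavy chain, was ordered DP, nasal and blood, at 89.67, 41.62 and 9.52 FPKM. For nasal over blood neutrophils, 6 of 14 were 2-fold higher and 0 lower, against 33.5% and 12.8% of all genes.

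Among interferon signalling genes, of which 10 of 11 were compared, 2 were 2-fold higher and 3 lower in DP than in nasal neutrophils, against 33.6% and 11.3% of all genes. Irf1, a direct inducer of immunoproteasome genes, stood at 139.9 FPKM in DP cells, 350.6 FPKM in nasal neutrophils and 157.2 FPKM in blood neutrophils. Jak2, a kinase of the interferon-gamma receptor, stood at 32.23, 11.12 and 4.8 FPKM. Socs1, the feedback inhibitor, was highest in nasal neutrophils, at 18.41 FPKM in DP cells, 59.71 FPKM in nasal neutrophils and 1.91 FPKM in blood neutrophils, and Irf8 likewise, at 1.99, 10.18 and 0.448 FPKM. Irf9, a factor of the type I interferon response, was highest in blood, at 54.08, 79.82 and 139.6 FPKM. Ifng itself was at 0.519 FPKM in DP and listed at 0 in both others.

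Proteasome transcripts are short, and short transcripts had higher ratios for DP over nasal neutrophils in general. The median length was 1581 nt for the constitutive group and 2745 nt for all compared genes with a length. Across all compared genes the median was 1.28 in the 808 with 400 to 1000 nt and 0.35 in the 4703 above 3000 nt. In the constitutive group the medians were 1.48 for 6 genes under 1000 nt and 1.38 for 4 genes over 3000 nt. These 4 were Psmd1 (0.73), Psme4 (0.76), Psmf1 (2.0) and Psmd5 (2.42). They are too few and too scattered to show whether the group has such a slope. With ratios corrected for length, the median of the constitutive group was 0.53 above that of all genes and that of the immunoproteasome subgroup 0.56 below it. Of the 48 genes, 25 were then 2-fold higher in DP, against 33.4% of all genes. For DP over blood neutrophils the medians of all genes fell likewise, from 1.47 to 0.68 over these lengths. Corrected for length, the constitutive and immunoproteasome medians there lay 0.11 and 0.09 above that of all genes. In that comparison 26 of 48 were 2-fold higher, against 48.8% of all genes.

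**Figure D5:**
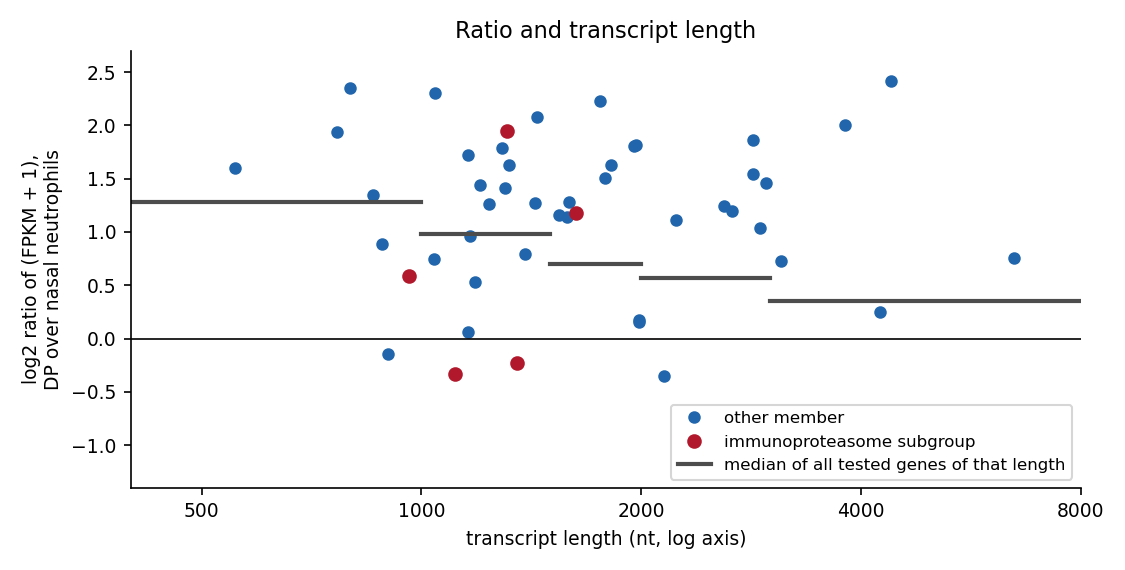
Log2 ratio of (FPKM + 1) for DP over nasal neutrophils against transcript length on a log axis, 1 point per proteasome gene with the immunoproteasome subgroup in red; grey bars are medians of all compared genes in 5 length ranges. The bars fall from 1.28 at 400 to 1000 nt to 0.35 over 3000 nt, and most points of the longer proteasome genes lie above their bar.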

How the data were processed

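RNA-seq of 3 libraries was read from the gene tables the authors deposited. The deposited values are FPKM; the table headers do not name the unit, and it rests on the submitters' processing notes, which name TopHat2 2.0.8, Bowtie2 2.1.0, Cufflinks 2.1.1 and the mm9 genome without settings. Per the labels' protocols, sorted cells were lysed in TRIzol LS and libraries made with a low-input RNA kit. FPKM is not a count, so no count model was used, and since each group had 1 library, differences have no error and were not tested. The tables give no depth; it was estimated from the spacing of low values multiplied by length, in genes with 1 transcript of more than 1500 nt. Lengths are those of the longest GENCODE M21 basic transcript, matched by symbol for 98.7% of compared genes and used as lengths only.

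Ratios were computed on log2(FPKM + 1) over genes with a mean of 1 FPKM or more, first group over second, in Python 3.11.15 with pandas 2.3.3 and numpy 2.4.6. A list is described by its counts at 2-fold and its median beside those of all compared genes. An exact 0 can be a failed estimate. The members, lists and thresholds were chosen with earlier results of these data known. All members could be named; of related genes, those fixed by name or with the 3 largest ratios of a list at a mean of 5 FPKM or more were, and Usp14, Ifng, Irf8, Ddi2, Ngly1, Rps27a, Ufd1l and Lap3 were chosen after their values were seen. The counting and length steps were tested on simulated data. Alternatives were other pseudocounts, filters, scalings, thresholds and a length correction. Paaf1 had no row and was not analysed here; Siglecf was read under the symbol Siglec5 and Adgre1 under Emr1. Values of a few listed genes are not reported here.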

Additional observations from a re-analysis of the deposited data

How the results depend on the processing

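With 1 library per group there was no replicate to leave out. No paired analysis was possible because each group is 1 library. Each value was recomputed under the alternatives that apply to it, which for pair shares are 2, and a ratio or count was taken as moved beyond 1.5 times. Of 124 recomputed values, 99 stayed within that, 21 moved and 4 changed sign. The 99 include values that could not change. None of the 48 genes was at 0, so leaving out genes at 0 altered nothing. Dropping the filter on low values added only Psma8, which is in neither group and has log2 ratios of 0.12 or less. For DP over nasal neutrophils, genes 2-fold higher were 32, and 16 with centred ratios, 13 with upper-quartile scaling and 6 at 4-fold, of 48, against 16.6%, 16.6% and 8.42% of all genes; upper-quartile scaling put the median of the constitutive group at 0.69 and that of the immunoproteasome subgroup at -0.07. For nasal over blood neutrophils, centring put these medians at -0.31 and -0.19. Upper-quartile scaling put that of the constitutive group at -0.09, against 0.28 over all genes. Genes 2-fold higher there were 7, and 4 with centring and 3 at 4-fold, of 48, against 33.5%, 23.9% and 13.1% of all genes. Genes 2-fold lower were 4, against 12.8% of all genes. With a pseudocount of 5 FPKM they were 2, against 8.46%, and with sums rescaled to 1000000 also 2, against 12.2%. With centring they were 10 and with upper-quartile scaling 7, of 48, near the 21.5% and 16.2% of all genes. At 4-fold they were 0, against 3.23%. For DP over blood neutrophils, the constitutive and immunoproteasome medians were 0.37 and 0.45 with centring. With upper-quartile scaling they were 0.48 and 0.55, against 0.29 over all genes. With the length correction they were 1.07 and 1.05, against 0.96 over all genes. Genes 2-fold higher were 34 of 48, against 48.6% of all genes. With centring they were 12, with upper-quartile scaling 16 and at 4-fold 11, near the 25.2%, 33.4% and 24.0% of all genes. Genes 2-fold lower were 0, against 9.49% of all genes. With centring they were 5, with upper-quartile scaling 4 and with the length correction 1, against 24.3%, 19.1% and 9.51% of all genes. Centring subtracts the median of all genes, which sets the change it gives; for the other alternatives the cause was not tested. An alternative chosen after seeing the data took DP over nasal neutrophils across genes at 1 FPKM or more in blood. It gave 30 of 46 genes 2-fold higher, against 32.8% of all genes. Pair shares did not move beyond 1.5 times with the median of the pairs (68.4%, 56.1% and 71.0% in DP, nasal and blood neutrophils) or with Psmb8 and Psmb5 alone (86.3%, 71.6% and 71.0%), but the order of the libraries changed. The nasal neutrophil library has the least depth, which limits Psmg1 to Psmg4, Psme4, Psmb11, Psmd9 and Psmc3ip most.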

Other observations

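Subunits of one complex were present at unequal transcript levels, and the spread differed between libraries. Among the 14 constitutive core genes the highest exceeded the lowest 8.16-fold in DP cells, 3.06-fold in nasal and 8.46-fold in blood neutrophils, with Psmb3 the highest in each and Psmb7, Psma4 and Psma5 the lowest in that order. Among the 17 genes of the 19S base and lid the range was 23.7-fold in DP cells, 4.55-fold in nasal and 50.9-fold in blood neutrophils, with Psmd4 the highest in each. Psmd3 was the lowest in DP and in blood. Across the 41 constitutive genes, Spearman's rho of the levels was 0.87 for DP and nasal neutrophils, 0.91 for nasal and blood neutrophils and 0.81 for DP and blood neutrophils, against 0.76, 0.67 and 0.61 over all compared genes; these are descriptions across genes, whose values in each pair of libraries share transcript length and which are not replicates.

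Ubiquitin and delivery genes, upstream of the proteasome, were ordered otherwise. The polyubiquitin gene Ubb was at 2684 FPKM in nasal neutrophils and listed at 0 in both DP and blood, so no fold is given. Rps27a, which encodes ubiquitin fused to a ribosomal protein, stood at 176.7 FPKM in DP cells, 142.5 FPKM in nasal neutrophils and 596.8 FPKM in blood neutrophils. The shuttle gene Ubqln1 stood at 32.05, 20.31 and 4.16 FPKM, lowest in blood, as was Rad23b, another shuttle, at 7.72, 9.06 and 0.821 FPKM, and Ufd1l, a cofactor of the Vcp unfoldase, at 74.75, 24.78 and 44.51 FPKM, lowest in nasal neutrophils. Of the 16 genes, Ubb included, 3 were 2-fold higher and 3 lower in DP than in nasal neutrophils, and 8 were higher and 2 lower in nasal than in blood neutrophils, against 33.6% and 11.3%, and 33.5% and 12.8%, of all genes.

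Other cytosolic proteases and peptidases, some of which trim the products of the proteasome, did not share its course. Of 9, 1 was 2-fold higher and 3 lower in DP than in nasal neutrophils, against 33.6% and 11.3% of all genes. Tpp2, a giant peptidase, was the higher one, at 10.9 FPKM in DP cells, 4.44 FPKM in nasal neutrophils and 6.56 FPKM in blood neutrophils. Npepps, the puromycin-sensitive aminopeptidase, was lower, at 3.77, 15.38 and 4.74 FPKM. Blmh, bleomycin hydrolase, stood at 10.83, 8.92 and 4.05 FPKM. Lap3, an interferon-inducible leucine aminopeptidase, was at 7.76 and 4.27 FPKM in DP and nasal neutrophils and at 0.0165 FPKM in blood neutrophils.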
